A study of Mus musculus with 4 samples.

Results

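The 10 alpha and beta tubulin genes *Tuba1a*, *Tuba1b*, *Tuba1c*, *Tuba4a*, *Tubb2a*, *Tubb2b*, *Tubb3*, *Tubb4b*, *Tubb5* and *Tubb6* were described in NIH/3T3 cells, an immortalised line of mouse fibroblasts. They were taken by symbol from the transcript table of the series and make up 10 of the 34200 transcripts and 10 of the 21945 genes in it. Each gene had 1 tested transcript, meaning a transcript that is in this table. The annotation lists 26 transcripts for the 10 genes. The cells had been transfected by lipofection, either with 2 siRNAs against *Setd2* (KD) or with a non-targeting Scrambled siRNA (WT), at a final concentration of 10 nM. Polyadenylated RNA was taken 48 h later and sequenced as 2 KD and 2 WT libraries. Every group therefore carried a transfection reagent and an siRNA, and the knockdown is transient and in 1 cell line. The values used here are means over all 4 libraries. Those of single libraries were not used here, and neither were the columns that hold the authors' own comparison of KD with WT. For this reason no difference between KD and WT is given for any gene, the knockdown itself was not checked, and the depth of the libraries is unknown.

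Microtubules are polymers of a dimer of 1 alpha and 1 beta tubulin, and mammals make each kind from several genes, called isotypes, that differ mainly in the acidic tail at the end of the protein. Cells hold the amount of tubulin in check through its mRNA: when free dimers are in excess, TTC5 recognises the first residues of tubulin as they leave the ribosome and the mRNA is degraded. Fibroblasts are known to use mostly the broadly expressed isotypes, whereas *Tubb3* and *Tubb2b* are known from neurons. SETD2, the methyltransferase that was depleted, is best known for H3K36me3 and has also been reported to methylate alpha tubulin at lysine 40. Codon 40 was AAG, a lysine codon, in all 4 alpha tubulin transcripts.

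The start of each open reading frame is shown because its first 4 codons, in capitals, encode the residues through which the mRNA is sensed. The 30 bases below are read 5′ to 3′ on the mRNA strand from the GENCODE M21 transcripts of GRCm38.
Tuba1a: ATGCGTGAGTGCatctccatccatgttggc
Tuba1b: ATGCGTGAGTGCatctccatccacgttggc
Tuba1c: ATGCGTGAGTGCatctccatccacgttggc
Tuba4a: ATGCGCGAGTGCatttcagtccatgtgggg
Tubb2a: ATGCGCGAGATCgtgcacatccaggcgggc
Tubb2b: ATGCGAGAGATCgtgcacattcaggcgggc
Tubb3: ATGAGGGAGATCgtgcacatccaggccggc
Tubb4b: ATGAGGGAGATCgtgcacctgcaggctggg
Tubb5: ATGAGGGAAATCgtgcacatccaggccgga

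The fourth codon separated the families, with TGC in the 4 alpha tubulins and ATC in the 5 beta tubulins shown. Within alpha tubulin, 23 to 30 of the 30 bases were the same in a pair of genes, and *Tuba1b* and *Tuba1c* had all 30 in common. Within the 5 beta tubulins shown, 24 to 28 bases were the same. *Tubb5* was the only gene shown with GAA as codon 3, and the others had GAG.

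The other end of the reading frame had fewer bases in common in each pair compared there, but by little in some pairs. Its last 30 bases before the stop codon are given for 6 genes, among them the 2 alpha tubulins with the lowest levels, with the last codon in capitals.
Tuba1c: gctgaaggagacgatgagggtgaggaaTAT
Tuba4a: tcctatgaggacgaggatgagggagaaGAG
Tubb2a: ttcgaggaggaggagggtgaagatgagGCT
Tubb3: gacgaggaatcggaagcccaggggcccAAG
Tubb4b: tttgaggaggaggctgaggaggaggtgGCT
Tubb5: gatttcggagaggaggcagaagaggagGCC

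*Tuba1c* and *Tuba4a* had 16 of these 30 bases in common, against 23 at the start. Between the 5 beta tubulins with a start shown, 12 to 27 bases were the same, and the median fell from 25.5 bases at the start to 16 at the end. The fall was small for *Tubb2a* with *Tubb2b* (28 and 27 bases) and for *Tubb4b* with either of them (24 and 22). Bases were compared position by position without gaps. The reading frames differ in length, so a shift in register could also lower the count at the end. *Tubb3* had 12 bases in common with each of *Tubb2a*, *Tubb4b* and *Tubb5*. *Tuba1c* ended in TAT, a codon of the terminal tyrosine that is removed and put back in the detyrosination cycle. *Tuba4a* ended in GAG and encodes no such tyrosine.

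Over the whole coding sequence the 10 genes fell into their families. The alpha tubulins had 448 to 451 codons before the stop codon and the beta tubulins 444 to 450, and each tested transcript had 4 exons. In global alignments, alpha tubulins were identical at 84.8% to 98.3% of positions over 6 pairs, beta tubulins at 80.2% to 96.5% over 15 pairs, and an alpha and a beta tubulin at 54.3% to 57.1% over 24 pairs. The closest pair was *Tuba1a* with *Tuba1b*, followed by *Tuba1b* with *Tuba1c* at 97.9% and *Tuba1a* with *Tuba1c* at 97.1%. *Tubb2a* and *Tubb2b* formed the closest beta pair.

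**Figure D1:**
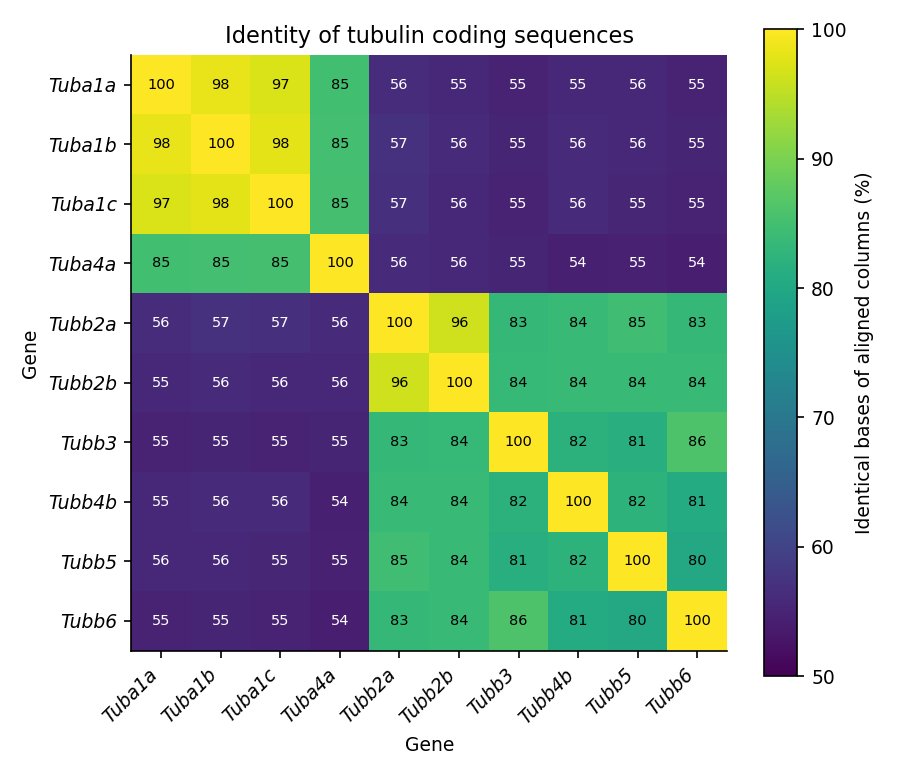
Identity of coding sequences, as the percentage of aligned columns with the same base, for every pair of the 10 genes. The alpha block and the beta block stand out from the alpha against beta pairs, which lie between 54.3% and 57.1%, and *Tuba1a*, *Tuba1b* and *Tuba1c* form the brightest group.

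The closest pairs were also neighbours in the genome. On chromosome 15 (GRCm38), *Tuba1b* lies from 98931425 to 98934565 and *Tuba1a* from 98949837 to 98953703, both on the minus strand and 15271 bases apart. *Tuba1c* lies on the plus strand from 99029891 to 99038110, 76187 bases beyond *Tuba1a*. On chromosome 13, *Tubb2a* (34074274 to 34078007) and *Tubb2b* (34126748 to 34130354) are 48740 bases apart on the minus strand. The remaining genes stand alone: *Tuba4a* on chromosome 1 (75214228 to 75219294), *Tubb4b* on chromosome 2 (25222160 to 25224702), *Tubb3* on chromosome 8 (123411424 to 123422015), *Tubb5* on chromosome 17 (35833921 to 35838306) and *Tubb6* on chromosome 18 (67390717 to 67402749).

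The tubulin mRNA of these fibroblasts came mostly from *Tuba1b* and *Tubb5*, which together held 61.6% of the level of the 10 genes. *Tubb2b* and *Tubb3*, introduced above as known from neurons, were almost absent from it. *Tuba1a*, also prominent in developing neurons, held 10.6% of the level of the 10 genes. A level here is the exponential of the authors' mean natural log value over the 4 libraries less 0.5, in normalised estimated counts, and is divided by the transcript length in kb wherever genes are compared. Its spread is the square root of the authors' variance over the 4 libraries, on the natural log scale. That spread holds any difference between KD and WT as well as the scatter within each group, and these cannot be told apart here.

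Among the alpha tubulins, *Tuba1b*, the broadly expressed isotype, had a level of 63979 normalised estimated counts or 36706 per kb, with a spread of 0.169. It ranked 171 of 21927 gene symbols by level per kb. *Tuba1a*, which is prominent in developing neurons but also made elsewhere, had 17258 normalised estimated counts or 9572 per kb, with a spread of 0.148. *Tuba1b* was thus 3.83 times as high per kb as its nearest relative in sequence. *Tuba1c* had 12846 normalised estimated counts or 6481 per kb, with a spread of 0.168. *Tuba4a*, whose long 3′UTR of 1397 bases makes its transcript the longest of the 10, had 2334 normalised estimated counts or 822 per kb, with a spread of 0.188. It was the only alpha tubulin under 1000 per kb, yet 76.3% of all gene symbols were lower still.

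Among the beta tubulins, *Tubb5*, the broadly expressed class I isotype, was highest with 49971 normalised estimated counts or 18864 per kb and a spread of 0.114. *Tubb4b*, a widely expressed isotype that is also used in cilia, had 16029 normalised estimated counts or 10031 per kb, with a spread of 0.0703. *Tubb2a*, a class II isotype, had 6522 normalised estimated counts or 4051 per kb, with a spread of 0.0504, the lowest of the 10 genes. *Tubb6*, the class V isotype, followed with 6370 normalised estimated counts or 3623 per kb and a spread of 0.174. Each of these 4 genes was above 94.0% or more of the gene symbols tested.

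*Tubb2b* and *Tubb3* lay far below. *Tubb2b* had 57.7 normalised estimated counts or 26.4 per kb, with a spread of 0.179, and only 35.3% of all gene symbols were lower. *Tubb2a* was 153 times as high per kb as this neighbour. *Tubb3* had 3.03 normalised estimated counts or 1.62 per kb, with a spread of 0.581, and 3.51% of gene symbols were lower. At so few counts the 0.5 that is added before the logarithm weighs on the value. In bulk RNA, few cells with the transcript and little of it per cell cannot be told apart.

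**Figure D2:**
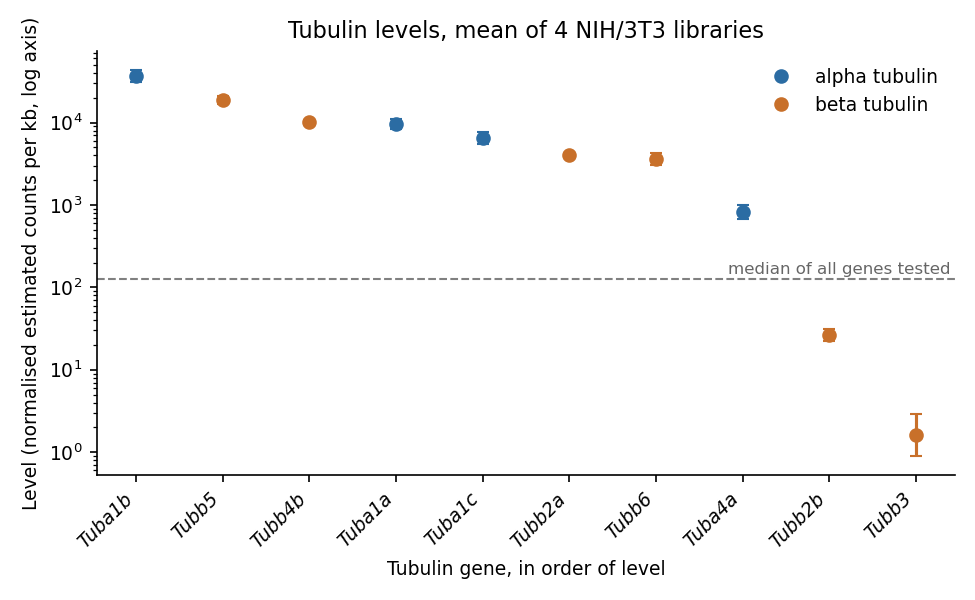
Level of each gene in normalised estimated counts per kb on a log axis, as the mean over the 4 libraries, with bars of 1 spread (the square root of the authors' variance over all 4 libraries, KD and WT together). From *Tuba1b* at 36706 to *Tuba4a* at 822, 8 genes lie above the dashed median of all gene symbols tested (127 per kb), and *Tubb2b* and *Tubb3* lie below it.

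In the order per kb, *Tuba1b* was 1.95 times *Tubb5*, and *Tubb5* was 1.88 times *Tubb4b*. *Tubb4b* and *Tuba1a* differed by 0.0468 on the natural log scale, less than the larger of their spreads (0.148), and their order is not taken as resolved. The same holds for *Tubb2a* and *Tubb6*, which differed by 0.112 against a spread of 0.174. All other neighbours differed by at least 2.32 times the larger spread. The widest steps were from *Tuba4a* to *Tubb2b*, 31.1 times, and from *Tubb2b* to *Tubb3*, 16.3 times. These are descriptions of pooled means, with no test. The spread is that of a single gene over the libraries. It is not the error of a difference between genes measured in the same libraries.

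Within alpha tubulin, the level per kb was 68.5% *Tuba1b*, 17.9% *Tuba1a*, 12.1% *Tuba1c* and 1.53% *Tuba4a*. Without division by length, the share of the long *Tuba4a* transcript was 2.42%. Within beta tubulin, the level per kb was 51.5% *Tubb5*, 27.4% *Tubb4b*, 11.1% *Tubb2a* and 9.90% *Tubb6*. *Tubb2b* contributed 0.0723% and *Tubb3* 0.00443%. The beta tubulin mRNA was thus spread over 4 genes, and no beta gene held as large a share of its family as *Tuba1b* did.

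**Figure D3:**
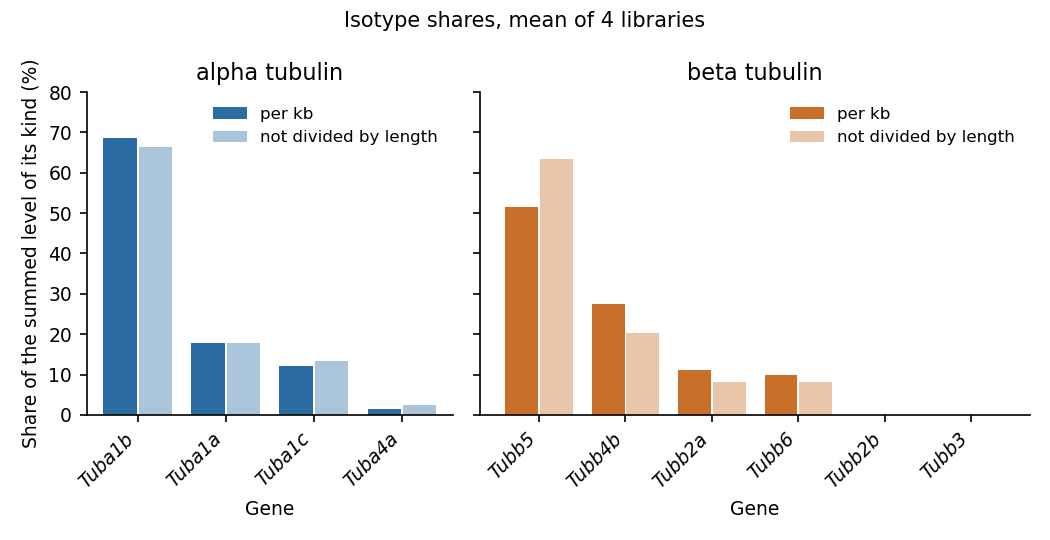
Share of each gene in the summed level of the 4 alpha or the 6 beta tubulin genes, from means over the 4 libraries, per kb (dark bars) and without division by length (pale bars). *Tuba1b* and *Tubb5* lead on both scales, and *Tubb5*, whose transcript has a 3′UTR of 1064 bases, changes by the most percentage points, from 51.5% to 63.3%.

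Summed per kb, the 4 alpha tubulin genes reached 53581 and the 6 beta tubulin genes 36597, a ratio of 1.46 of alpha to beta mRNA. Without division by length the ratio was 1.22, and with 200 bases taken off each length 1.49. The alpha sum was higher on every scale that was tried. The 10 genes held 0.193% of the level per kb of all tested transcripts.

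The spreads of the alpha tubulins resembled each other. Their variances over the 4 libraries were between 0.0220 and 0.0355, and each was above the median of the 1000 tested transcripts nearest to it in mean (0.0132 to 0.0174). *Tuba4a* stood at the 74.9th percentile of its 1000 neighbours, *Tuba1c* at the 66.9th, *Tuba1b* at the 66.8th and *Tuba1a* at the 58.6th. Against all transcripts with a level of 100 or more, *Tuba1a* stood just below the median, at the 49.0th percentile, and the other 3 remained above it. The beta tubulins were more mixed. *Tubb2a* had a variance of 0.00254 against a neighbour median of 0.0146 and stood at the 11.9th percentile, and *Tubb4b* had 0.00494 against 0.0174 and stood at the 19.1st. *Tubb5* (0.0129) stood at the 41.0th percentile, whereas *Tubb6* (0.0303) stood at the 72.5th, among the alpha tubulins. The weakly expressed *Tubb2b* (0.0321 against 0.0538) and *Tubb3* (0.338 against 1.71) stood at the 32.6th and 14.2nd percentiles. In all, 5 of the 10 genes were above the median of their neighbours and 5 below. Whether the variance of a gene comes from KD against WT or from scatter within the groups was not examined.

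**Figure D4:**
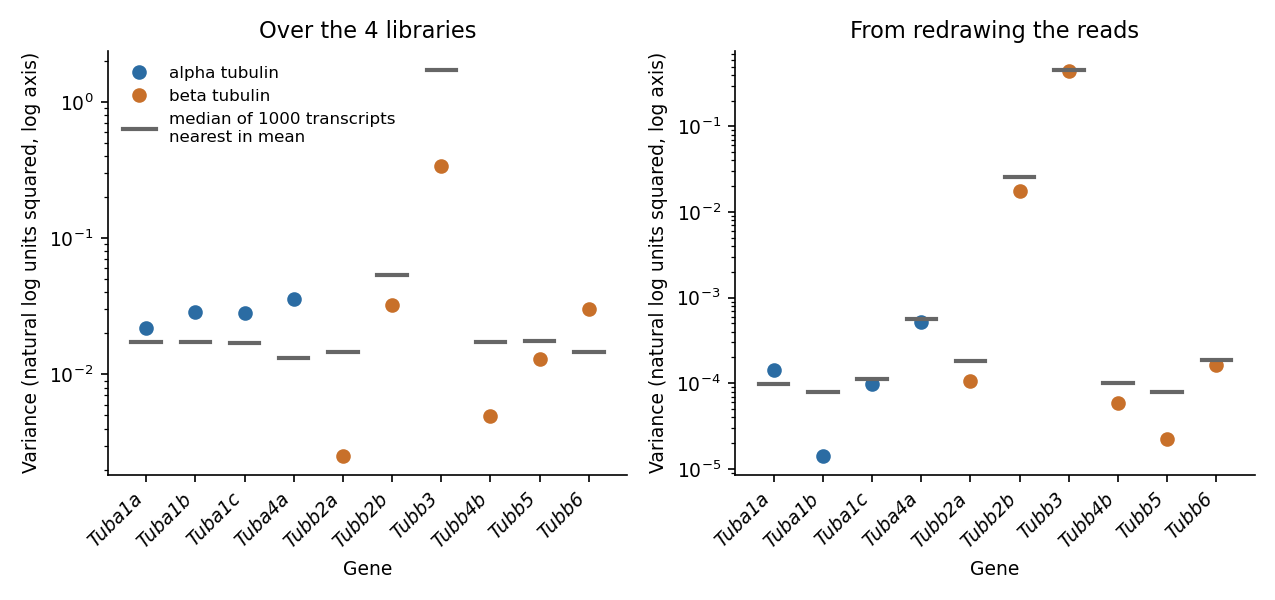
Variance of the natural log values over the 4 libraries (left) and from drawing the reads of a library again (right), on log axes, for each gene (points) and as the median of the 1000 tested transcripts nearest in mean (grey lines). On the left, the 4 alpha tubulins and *Tubb6* lie above their lines and the other beta tubulins below; on the right, *Tuba1a* alone lies above its line.

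The authors' table also holds a variance that Kallisto obtains by drawing the reads of a library again. It holds the counting error as well as the uncertainty of assigning a read to one of several similar transcripts, and these were not separated here. It was below the neighbour median for 9 of the 10 genes, though only slightly for *Tubb3* (49.2nd percentile) and *Tuba4a* (46.6th). The exception was *Tuba1a*, with 1.43e-04 against 9.82e-05, at the 72.6th percentile of its neighbours. *Tuba1b*, with 1.43e-05 against 7.87e-05, stood at the 7.50th percentile, and *Tubb2a* at the 2.50th. For the 8 higher genes this variance came to between 0.0502% (*Tuba1b*) and 4.24% (*Tubb2a*) of the variance over libraries. For *Tubb2b* it came to 55.0%, and for *Tubb3*, at 3.03 normalised estimated counts, to 130%. Against all transcripts with a level of 100 or more, the variance of *Tuba1a* was below the median as well, at the 5.61st percentile, and those of *Tubb2b* and *Tubb3*, whose levels are lower, were above it.

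The share of each transcript that is found in no other gene was computed in words of 31 bases over all GENCODE M21 transcripts, on the same strand. It was 95.6% to 96.7% for *Tuba4a*, *Tubb3*, *Tubb5* and *Tubb6*. It was 54.1% for *Tubb2b*, 43.6% for *Tubb2a*, 36.1% for *Tuba1c*, 35.4% for *Tubb4b*, 24.6% for *Tuba1b* and 23.0% for *Tuba1a*. In the coding sequence of *Tuba1a*, *Tuba1b* and *Tuba1c*, 6.28%, 4.73% and 7.35% of words were particular to the gene, against 100%, 98.5% and 100% in the 3′UTR. A word was placed by its first base, so the last words counted as coding reach into the 3′UTR. The levels of these 3 genes, and of *Tubb2a*, *Tubb2b* and *Tubb4b*, thus rest on a smaller share of their transcript than those of the other 4 genes, and reads from the shared stretches could be split between genes.

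**Figure D5:**
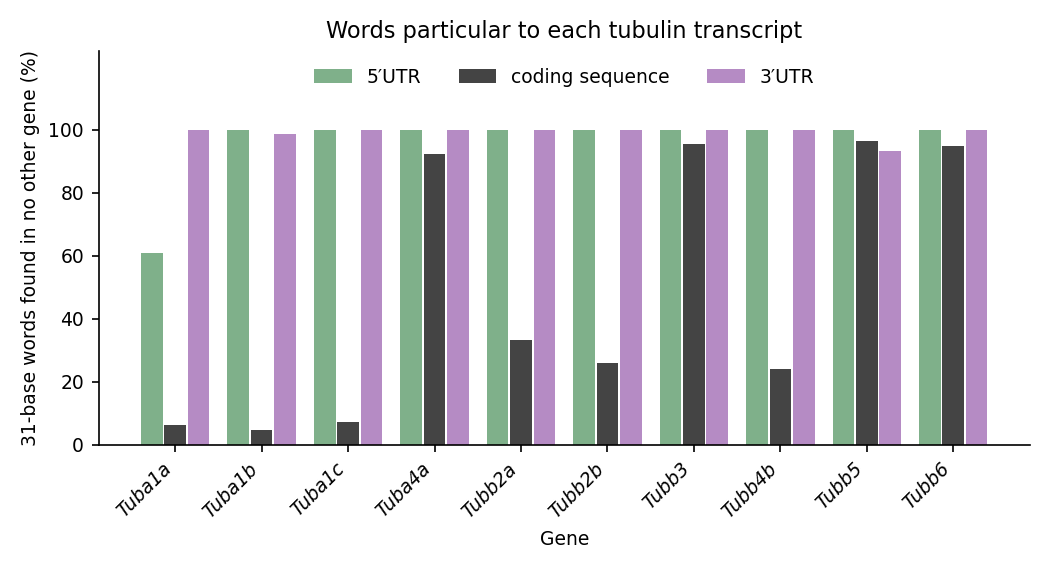
Percentage of 31-base words of the 5′UTR, coding sequence and 3′UTR of each tested transcript that are found in no other gene of the annotation on the same strand. A word is placed by its first base. The coding bars of *Tuba1a*, *Tuba1b* and *Tuba1c* are between 4.73% and 7.35%, while their 3′UTR bars are at 98.5% or more.

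The words were shared with relatives and with processed pseudogenes, which are copies of an mRNA put back into the genome. *Tuba1b* shared 64.5% of its words with *Tuba1c* and 55.2% with *Tuba1a*, and *Tubb2a* shared 51.1% with *Tubb2b*. *Tubb4b* shared 54.5% with the pseudogene *Tubb4b-ps1*. At least 10% of the words of a member were held by 12 pseudogenes, of which 7 were tested, with levels between 9.86 (*Tubb4b-ps1*) and 816 (*Gm3226*) normalised estimated counts. Their summed level, 1637, was 0.933% of that of the 10 genes. *Gm49450*, a gene annotated on the same strand across *Tuba1b* and *Tuba1a*, shared 41.9% of the words of *Tuba1a* and had a level of 2961.

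Genes also overlap on the opposite strand, *Stk16* with the end of *Tuba4a* over 1379 bases and *Gm41396* with *Tuba1b* over 241 bases. *Fam166a*, which was not tested, overlaps *Tubb4b* over 121 bases. Counting both strands, the share of particular words fell from 96.2% to 48.2% for *Tuba4a* and from 24.6% to 14.0% for *Tuba1b*. It fell from 35.4% to 29.6% for *Tubb4b* and from 23.0% to 21.4% for *Tuba1a*. The libraries were made with a stranded kit. Whether the strand was used in the quantification is not given in the sources used here, so reads of *Tuba4a* and *Stk16* (level 3885) may not have been told apart. On the same strand, *Gm20388*, with a level of 1579, is annotated over the whole of *Tubb3*. However, *Gm20388* was not among the genes that shared words with the tested *Tubb3* transcript. Of the words of that transcript, 96.7% were found in no other gene on the same strand.

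The rest of the microtubule genes were summarised from lists. Of 6 other alpha and beta tubulin genes 4 were tested, and all 4 were below the median of all gene symbols, with *Tubb4a* highest at 20.8 per kb. Of the gamma, delta and epsilon tubulins, which act at the centrosome, 3 of 4 were tested, with *Tubg1* highest at 1391 per kb. All 13 genes for tubulin folding were tested and 12 were above the median, up to 22809 per kb for *Tbca*, a cofactor that binds beta tubulin. *Ttc5*, which senses nascent tubulin, had 684 per kb, and *Scaper*, which works with it, 197 per kb. Of 22 enzymes that modify tubulin 19 were tested and 13 were above the median, up to 2207 per kb for the deacetylase *Sirt2*. Of 24 microtubule-associated proteins 21 were tested and 18 were above it, up to 3765 per kb for the destabiliser *Stmn1*.

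The labelled cell type was checked on marker genes. All 10 fibroblast markers were tested, and 9 of them were above the median of all gene symbols, with *S100a4* at 458932 and *Vim* at 68589 per kb. The exception was *Lum*, at 2.86 per kb. Of 7 neuronal markers 4 were tested and all 4 were below the median, with *Snap25* highest at 31.9 per kb, beside the 1.62 per kb of *Tubb3*. Of 10 markers of epithelium, leukocytes and endothelium 8 were tested, and 2 of these (*Krt14* and *Cd68*) were above the median.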

How the data were processed

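Adapters were trimmed by the authors in BBDuk, after which Kallisto estimated a count for each transcript and Sleuth fitted the groups. The index, the filter on low counts and any strand setting are not given in the sources used here. The deposited transcript table gives, per the file headers, the mean over the 4 libraries on the natural log scale of estimated counts divided by a size factor, plus 0.5. It also gives the variance over libraries and that from redrawing reads within a library. The headers do not state the scale. That the values are natural logarithms of estimated counts, divided by a size factor and with 0.5 added, is taken from Sleuth's defaults. Its other columns, and the gene table, hold the authors' effects, p-values and q-values for KD against WT and were not used, so the planned test of KD against WT in single libraries could not be made.

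The members and gene lists were chosen with earlier results of these data known. All members and, of each list, the highest gene are named; *Scaper*, *Vim*, *Lum*, *Krt14*, *Cd68* and the genes that share or overlap sequence were named after their values were seen. Lengths, positions and sequences came from GENCODE M21 (GRCm38, the build per the labels). Of the transcripts, 98.6% matched with the same version and 99.98% without it; *Tubb6* matched only without the version. Coding sequences were aligned with Biopython 1.88. On simulated data, levels were recovered from their own logarithms and a percentile was compared with its known value. For words, only their number and the reverse complement were checked there, and the sharing of words between genes was not. Protein sequences were not used here, and the last bases of some reading frames are not reported here.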

Additional observations from a re-analysis of the deposited data

How the results depend on the processing

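Without division by transcript length, the share within alpha tubulin was 2.42% for *Tuba4a*, and the shares within beta tubulin were 63.3% for *Tubb5*, 20.3% for *Tubb4b*, 8.26% for *Tubb2a* and 8.07% for *Tubb6*, all further from the values per kb than 1 spread of the gene. The ratio of alpha to beta was 1.22 on that scale. These moves follow from the differences in transcript length alone. *Tubb4b* and *Tuba1a* changed places, and the other 8 genes kept theirs. Taking 200 bases off each length moved no share, nor the ratio, by more than the spread. Leaving the 0.5 in the level, an alternative chosen after seeing the data, kept all 10 places. Keeping the highest transcript of each gene changed nothing because each gene had 1 tested transcript. Against all transcripts whose mean reached 100 normalised estimated counts, 6 genes in place of 5 were above the median variance over libraries and 8 in place of 9 below the median variance from redrawing reads. In each measure 3 genes changed sides. *Tuba1a* went below the median, to percentiles of 49.0 over libraries and 5.61 from redrawing. *Tubb2b* (59.9 and 84.4) and *Tubb3* (97.7 and 98.0) went above it, and the levels of both are under that minimum. No paired analysis was possible because the table holds no values of single libraries that were used. For the same reason leaving out a replicate and another pseudocount were not run. With pooled means, depth and replicate error limit every order given here.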
